A study of Mus musculus with 49 samples.

Results

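Jun encodes c-Jun, a basic leucine zipper protein of the AP-1 transcription factor. Its mRNA was followed here in mouse bone marrow B cells that had lost surface IgM, had their tyrosine kinases inhibited, or had met antigen. Jun was chosen by its signal on these arrays, which was already known to be high in cells without receptor signal, and Egr1, a zinc finger factor, was set beside it as a contrast. The levels of both given below are therefore a description and carry no test. One probe set matched Jun alone on each of 2 Affymetrix array types, so Jun is 1 of 7417 genes named on the U74Av2 arrays and 1 of 8220 on the U74A arrays. Egr1 had 1 such probe set on the U74Av2 arrays and 2 on the U74A arrays.

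The study deposited 49 arrays in 14 groups, 37 of them U74Av2 arrays and 12 U74A arrays. Cre-Mlo cells (n = 4) came from B1-8h/3-83kappa/Mx-Cre marrow, grown in IL-7 and then kept without IL-7 for 2 days with interferon alpha and beta, which switch on the Mx-Cre transgene and so the deletion of the heavy chain allele; they were sorted for low surface IgM. Cre-Mhi cells (n = 4) were the IgM-high cells of such cultures and, by the study's account, are partly deleted. Ctrl-Mhi cells (n = 4) were IgM-high cells without Mx-Cre that had the same interferon and the same loss of IL-7, and every mouse of these 3 groups carried single copies of the heavy and light chain knock-in alleles. B6-Mneg cells (n = 3) were B220+ IgM-negative cells from IL-7 cultures of C57BL/6 marrow, with neither interferon nor an Ig transgene. FxD cells (n = 3) were pre-B cells (B220+ CD43neg IgMneg) and FxE cells (n = 3) immature B cells (B220+ IgM+ IgDneg), both sorted directly from Balb/c marrow, with RNA amplified in 2 rounds. GFPpos cells (n = 3) were anti-HEL immunoglobulin/Rag-2-GFP cells recultured for 1 day with herbimycin A and sorted as IgM+ and GFP+, and GFPneg cells (n = 3) were IgM+ GFP-negative cells from medium, where HEL is hen egg lysozyme and GFP reports Rag2 transcription. By the study's account, both came from marrow first grown in IL-7. FxE HA (n = 6) and FxE Ctrl (n = 4) were FxE cells of Bcl-2 transgenic mice cultured for 24 h or 48 h with or without herbimycin A, an inhibitor of tyrosine kinases that also binds Hsp90. On the U74A arrays, HEL 48h cells (n = 3) were Rag2-GFP, HEL-Ig cells given HEL at 1 ug/ml for 48 h and sorted as IgMa-high and GFP+. BM 48h Ctrl cells (n = 3) were their GFP-negative controls without HEL. HEL-Mlo (n = 3) were IgM-low cells, with no dose or hours of HEL recorded, and HEL-Mhi (n = 3) were IgM-high cells of HEL-Ig cultures. All cells on the U74A arrays had been cultured in IL-7. By the study's methods, mice were generally 4 to 8 wk old.

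AP-1 is a dimer. Jun proteins pair with each other or with Fos, ATF and BATF proteins, and the pairs bind short DNA elements in many genes of growth, stress and differentiation. The kinase JNK phosphorylates c-Jun and raises its activity, and c-Jun with ATF partners is known to act on its own promoter. In B cells, ligation of the antigen receptor is a classical inducer of the immediate early genes, Egr1 and the AP-1 genes among them.

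The stretch before the Jun gene is shown because Jun moved apart from the other AP-1 genes in these data and carries its own AP-1-type elements there. In RefSeq's GRCm38.p6 the gene lies on the minus strand at chr4:95049036-95052222. The 250 bases before its start (chr4:95052223-95052472) are given from 5′ to 3′ on the gene's strand, with capitals at the motif matches.
Jun promoter: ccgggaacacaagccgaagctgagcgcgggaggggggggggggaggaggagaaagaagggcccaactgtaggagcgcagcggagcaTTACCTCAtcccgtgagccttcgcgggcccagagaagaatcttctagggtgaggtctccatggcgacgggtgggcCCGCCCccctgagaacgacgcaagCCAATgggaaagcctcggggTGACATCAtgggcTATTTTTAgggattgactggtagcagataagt
Each motif was searched on both strands in the same window of 27025 RefSeq promoters. TGACATCA, the proximal AP-1-type site known from the JUN gene, lies 45 to 38 bases before the start and occurred in 3.02% of promoters. TTACCTCA, the distal site of that kind, lies 164 to 157 bases before it and occurred in 0.714%. CCAAT (34.5% of promoters), the MEF2-type core TATTTTTA (2.48%) and, on the other strand, the GC box GGGCGG (32.9%) also matched. The AP-1 consensus TGAGTCA (4.43% of promoters), the cAMP response element TGACGTCA (1.62%) and the EGR-type site GCGTGGGCG (0.540%) had no match in this window. A match is a string of letters, and no binding was measured here. Promoters of the other AP-1 genes were not examined one by one, and a link between these sites and Jun mRNA was not tested.

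Jun was highest in cells that had lost IgM and lowest in cells with IgM that had seen neither deletion nor drug. Signals are in arbitrary units after the authors' scaling of each array. Cre-Mlo arrays gave 3337.5, 4881.6, 3521.5 and 3049.1 units, against 672.2, 103.3, 191.4 and 311.3 in Ctrl-Mhi cells. Each Cre-Mlo array lay above each of the other 33 U74Av2 arrays. GFPpos arrays followed with 2833.8, 1539.9 and 1712.3 units, against 191.7, 442.7 and 87 in GFPneg cells. B6-Mneg arrays gave 1616.1, 1563.3 and 1669.6 units, the narrowest spread of any group. FxE HA cells ranged from 923 to 2222.6 units with a median of 1056.4, against 312.1 to 833.4 in FxE Ctrl cells. FxD arrays gave 777.4, 673.9 and 913.5 units, against 342, 195.1 and 283.3 in FxE cells. Cre-Mhi arrays gave 295.1, 421.5, 599.8 and 476.5 units and overlapped with Ctrl-Mhi.

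**Figure D1:**
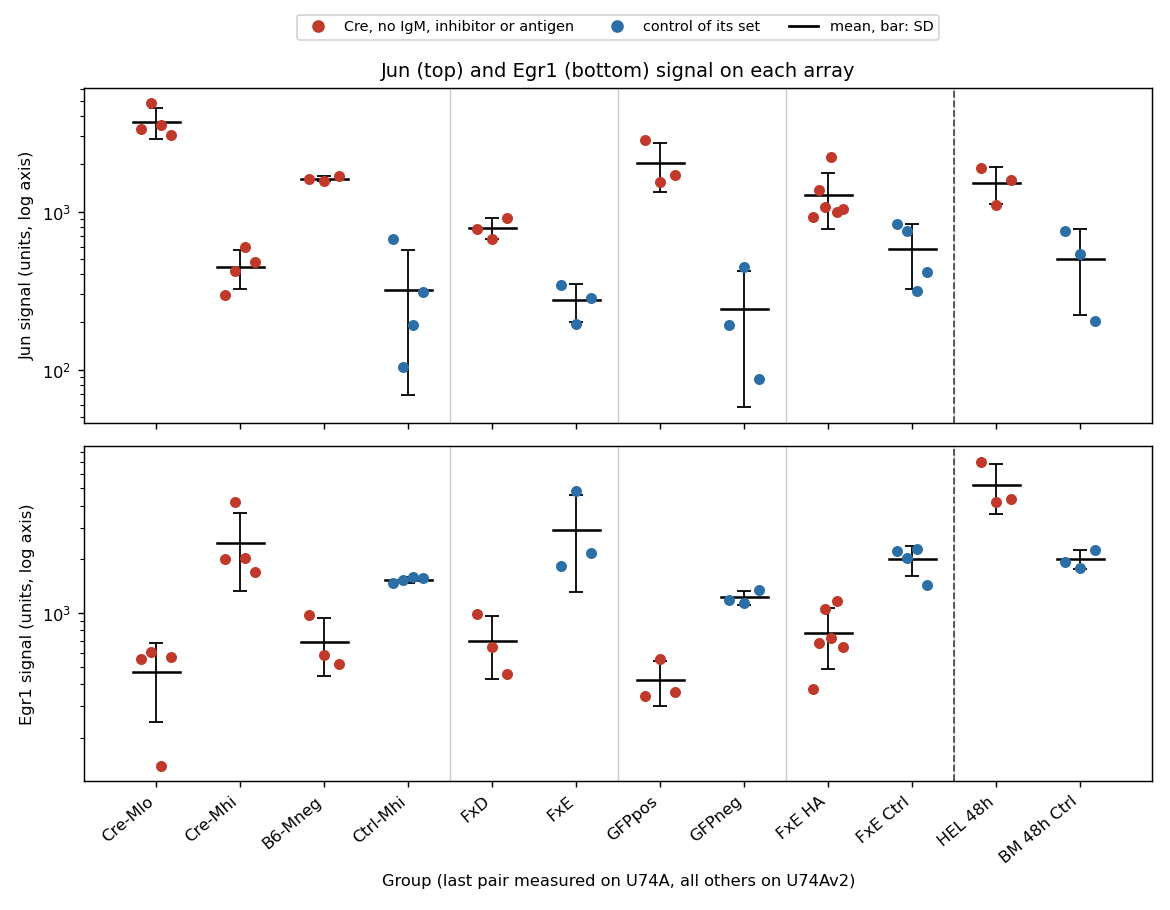
Jun (upper panel) and Egr1 (lower panel) signal in units on log axes, on the 37 U74Av2 arrays and, right of the dashed line, on the 6 U74A arrays of HEL 48h and BM 48h Ctrl; points are arrays, long bars group means and short bars SD, with control groups in blue. Jun ran from 3049.1 to 4881.6 units in Cre-Mlo cells, above every other array shown, and Egr1 from 138.7 to 601.3 units there, below each Ctrl-Mhi array.

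Ranked by mean, the order for Jun was Cre-Mlo (3697 ± 813 units, SD), GFPpos (2029 ± 703), B6-Mneg (1616 ± 53.2), FxE HA (1270 ± 492), FxD (788 ± 120), FxE Ctrl (578 ± 254), Cre-Mhi (448 ± 126), Ctrl-Mhi (320 ± 250), FxE (273 ± 73.9) and GFPneg (240 ± 183). Neighbours in this order were separated without overlap at 2 places only, between Cre-Mlo and GFPpos and between FxE HA and FxD. At the other 7 steps the arrays of the neighbouring groups overlapped. By mean, the 5 groups with lost, absent or inhibited receptor signal stood above the 5 IgM+ groups without drug. Placed among the 9977 probe sets of its own array, Jun lay at the 86.1th percentile in Cre-Mlo cells and the 35.3th in Ctrl-Mhi cells (medians over arrays). None of the 11 B cell markers measured had a mean under 200 units in any U74Av2 group. Marker signal of other cells was seen too. Summed myeloid markers reached 140396 units in FxE HA and 282846 in FxE cells, where summed B cell markers were at most 79202 and 254579. Such sums over different probe sets do not measure shares of cells. By the study's account the Bcl-2 transgenic FxE cells were sorted to high purity, and the source of this signal was not tested.

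Of the 8 comparisons, Cre-Mlo against Ctrl-Mhi had the highest fitted Jun difference, though its range without one array overlapped that of GFPpos against GFPneg. On the log2 scale Jun was 3.84 ± 0.48 (SE) higher in Cre-Mlo than in Ctrl-Mhi cells, or 14.3-fold, and 4 of 9977 probe sets had a larger positive difference. Against Cre-Mhi cells, sorted from the same kind of culture with the same transgene, Jun was 3.07 ± 0.48 higher (8.38-fold) in a fit without pairing. Cre-Mhi and Ctrl-Mhi cells differed by 0.78 ± 0.48, with overlapping arrays. Of 19 probe sets that match Ighm, the mu heavy chain gene, 7 were lower on every Cre-Mlo array than on every Ctrl-Mhi array and 0 were higher. One of these 7, which also matches heavy chain variable segments, averaged 903 units in Cre-Mlo, 38084 in Cre-Mhi and 58755 in Ctrl-Mhi cells. The fall was smaller in the brightest probe sets that match Ighm alone. The brightest averaged 84393 units in Cre-Mlo and 136400 in Ctrl-Mhi cells, and the next 68243 and 117381. The share of all probe sets lower without overlap in this comparison was not counted, so the 7 of 19 have no background beside them.

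Egr1 went the other way in the deleted cells. Its signal was 551.9, 601.3, 138.7 and 565.2 units in Cre-Mlo cells, 1697 to 4196.6 in Cre-Mhi cells and 1465.4 to 1596.1 in Ctrl-Mhi cells. The Cre-Mlo arrays lay below all arrays of the other 2 groups. The log2 difference was -1.94 ± 0.45 against Ctrl-Mhi (3.83-fold lower) and -2.53 ± 0.45 against Cre-Mhi.

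None of the other AP-1 subunits passed the test in the deleted cells. They were tested with limma across all 9977 probe sets, and a gene is called at an adjusted p under 0.05. Of 14 listed subunits other than Jun, 10 were measured on the U74Av2 arrays, and 0 of 10 were called between Cre-Mlo and Ctrl-Mhi cells, where 8.33% of all probe sets were called. One of the 10 had an unadjusted p under 0.05, and the methods' t-test also called 0. Their median log2 difference was -0.09, and that of all probe sets was -0.04. Junb, a Jun paralog, gave 1908.9, 2029.5, 1639.5 and 1220.6 units in Cre-Mlo cells, against 3037.1, 2175.7, 2186.5 and 2170.6 in Ctrl-Mhi cells. Those arrays did not overlap, but the log2 difference of -0.50 ± 0.21 missed the threshold (limma adjusted p = 0.188). Jund, the third Jun gene, averaged 49518 ± 6614 units in Cre-Mlo and 50194 ± 1632 in Ctrl-Mhi cells, a difference of -0.03 ± 0.14. Among Fos proteins, which pair with Jun, Fosb differed by -0.22, Fosl1 by 0.02 and Fosl2 by -0.04. Among ATF and BATF partners, Atf2 differed by 0.20, Atf3 by -0.15, Atf4 by -0.14, Batf by -0.60 and Batf3 by 0.16. Fos itself was measured on the U74A arrays only.

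Against Cre-Mhi cells, 0 of the 10 subunits were called (6.08% of probe sets), with 2 at an unadjusted p under 0.05, 0 by the methods' t-test and log2 differences from -0.78 to 0.42. Between Cre-Mhi and Ctrl-Mhi cells, 0 of 10 were called (0.02% of probe sets), with 1 at an unadjusted p under 0.05, 0 by the methods' t-test and differences from -0.40 to 0.50.

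Upstream of Jun, single components changed in both directions. Of 21 measured members of the JNK and p38 cascade, 2 rose and 2 fell between Cre-Mlo and Ctrl-Mhi cells, where 8.33% of all probe sets were called, with a list median of -0.05. Traf6, an adaptor that activates this cascade and NF-kappaB, averaged 10388 ± 507 units in Cre-Mlo and 3914 ± 979 in Ctrl-Mhi cells (log2 difference 1.44 ± 0.18, limma adjusted p = 0.000548). Map4k1, a kinase of blood cells that can feed JNK, averaged 4252 ± 499 and 10736 ± 999 units in the same 2 groups (-1.34 ± 0.14, limma adjusted p = 0.000194). Rac2, a small GTPase of blood cells, fell by 0.97 ± 0.11. Mapk9, which encodes JNK2, rose by 0.56 ± 0.15, but its call held in 1 of 8 fits that left out an array (limma adjusted p 0.0334 to 0.0982). Those of Traf6, Map4k1 and Rac2 held in all 8.

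Among 7 measured MAP kinase phosphatases and GADD45 genes, 2 rose and 1 fell, again beside 8.33% of all probe sets called. Dusp16, a phosphatase that acts on JNK, averaged 1082 ± 85.1 units in Cre-Mlo and 265 ± 133 in Ctrl-Mhi cells (2.24 ± 0.43, limma adjusted p = 0.00868). Gadd45a, a stress gene, rose by 1.09 ± 0.19, and Gadd45b fell by 0.65 ± 0.16 with a call that held in 3 of 8 fits without an array. None of the 6 measured genes of c-Jun turnover and none of the 10 of the ERK and SRF branch was called, with 1 and 2 at an unadjusted p under 0.05 and 0 each by the methods' t-test.

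Known targets of AP-1 were then counted against the 8.33% of all probe sets called in this comparison (422 up and 409 down of 9977). Of 22 measured AP-1 target genes, 0 rose and 4 fell in Cre-Mlo cells, with a median of -0.18, and a count of 0 up in a list of this size is near that background. The 4 were Anxa1 (-1.48 ± 0.28), Ezr (-0.59 ± 0.12), Lgals3 (-1.21 ± 0.29) and Dnmt1 (-0.76 ± 0.21), which encode annexin A1, ezrin, galectin-3 and a DNA methyltransferase. The calls of Anxa1 and Ezr held in all 8 fits without an array, that of Lgals3 in 2 and that of Dnmt1 in 1. Of 28 measured immediate early genes other than Jun and Egr1, 2 rose and 3 fell, with a median of -0.17. Nfkbia, the NF-kappaB inhibitor, rose by 1.25 ± 0.13, to 25925 ± 1850 units in Cre-Mlo cells against 10920 ± 1110 in Ctrl-Mhi cells. Mcl1, a survival gene, fell by 0.68 ± 0.11. Rhob (0.63 ± 0.17) and Klf4 (-1.33 ± 0.37) each kept their call in 1 of 8 fits. In the EGR group, Nab2, a corepressor of EGR proteins that is itself an EGR target, fell by 1.99 ± 0.51 (limma adjusted p = 0.037), a call that held in 3 of 8 fits, and Egr2 and Nab1 were not called.

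A large set of pro-B and pre-B markers moved with Jun in the deleted cells. Of 12 measured, 10 rose and 0 fell, where 8.33% of all probe sets were called in this comparison. Rag1, Rag2, Dntt, Lef1, Sox4 and others of this list were already reported by the study as raised in Cre-Mlo cells, from these same arrays. The count is therefore a description and no independent result. The 5 with the smallest adjusted p were Rag1 (4.06 ± 0.23), Lef1 (1.47 ± 0.12), Rag2 (2.86 ± 0.26), Sox4 (2.37 ± 0.24) and Dntt (4.79 ± 0.49). The summed signal of the 12 markers was 133209 to 149588 units in Cre-Mlo cells and 36306 to 46780 in Ctrl-Mhi cells. Of 11 B cell markers 1 rose (Blnk) and 4 fell (Cd22, Cd72, Spib and Ptprc). Of 11 heat shock genes Hspa1b rose by 1.59 ± 0.26 and Hspb1 fell by 2.33 ± 0.44. Markers of T cells (9 measured), myeloid cells (15), NK cells (7), erythroid cells (8), mast cells and related cells (7) and stroma (8) had 0 limma calls each and 0 by the methods' t-test, with 1, 0, 2, 0, 2 and 2 genes at an unadjusted p under 0.05 in that order. Counts of 0 in lists of this size were near the background of 8.33%. Summed myeloid signal was 10963 to 14892 units in Cre-Mlo and 10252 to 16140 in Ctrl-Mhi cells. Of 6 plasma cell markers Prdm1 and Irf4 rose, and of 8 p53 targets Gadd45a and Sesn1 rose. Without an array, the calls of Sesn1 and of the pre-B marker Igll1 held in 1 of 8 fits and that of Ptprc in 4 of 8. What part the marker genes had in the Jun difference was not tested. In sorted bulk samples, fewer cells of a type and less RNA per cell cannot be told apart.

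Cells that never carried a transgenic receptor also had high Jun. B6-Mneg cells stood 2.67 ± 0.59 above Ctrl-Mhi cells on the log2 scale (6.37-fold), with no overlap. Strain, receptor, interferon and IL-7 differ together in this comparison and cannot be told apart, and it shares its Ctrl-Mhi arrays with the deletion comparisons. Egr1 was 521.3, 578.7 and 976.9 units in B6-Mneg cells, below every Ctrl-Mhi array (-1.21 ± 0.23). Here 0 of 10 other AP-1 subunits were called (14.2% of probe sets), with 1 at an unadjusted p under 0.05, 0 by the methods' t-test and a median of -0.19, against -0.13 for all probe sets. That 1 gene was Atf4, a stress-responsive ATF protein, at 10507 ± 729 units in B6-Mneg cells and 6833 ± 1174 in Ctrl-Mhi cells (0.63 ± 0.18, limma adjusted p = 0.0599). In the JNK and p38 cascade 0 of 21 rose and 4 fell (Map4k1, Rac2, Map3k1 and Mapk9). Of these, Map4k1 kept its call in all 7 fits without an array, Rac2 in 5, Map3k1 in 3 and Mapk9 in 0. Traf6 was not called, at 3876 ± 278 units in B6-Mneg and 3914 ± 979 in Ctrl-Mhi cells. Of 12 pro-B and pre-B markers 11 rose, and of 11 heat shock genes 4 rose.

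In uncultured marrow the same direction was seen at a smaller size. FxD pre-B cells stood 1.55 ± 0.30 above FxE immature B cells (2.94-fold), and their Jun arrays did not overlap. Egr1 ran from 453.3 to 986 units in FxD and from 1839.1 to 4810 in FxE cells (-2.02 ± 0.48). Of the 10 other AP-1 subunits 0 were called (3% of probe sets), with 0 at an unadjusted p under 0.05, 0 by the methods' t-test and a median of -0.10, against 0.04. Atf3 (0.67) and Atf4 (0.51) did not overlap between the groups and missed the threshold. The share of all probe sets without overlap was not counted in this comparison, so these 2 have no background beside them. Of the JNK and p38 cascade Traf6 alone was called, at 8658 ± 1297 units in FxD and 3316 ± 376 in FxE cells (1.38 ± 0.25, limma adjusted p = 0.0444), and Ier2, an immediate early gene, fell by 1.96 ± 0.27. Neither call held in any of the 6 fits without an array (limma adjusted p 0.0604 to 0.199). These 2 groups held strong signal of markers of other cells. Summed myeloid markers were 38771 to 79828 units in FxD and 70311 to 282846 in FxE cells, and summed erythroid markers were 61767 to 124111 and 118374 to 165013 in the same order. By limma 0 of 15 and 0 of 8 were called, with 3 and 1 at an unadjusted p under 0.05 and 0 and 1 by the methods' t-test. Their part in the Jun values was not tested.

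Herbimycin A was used to inhibit tyrosine kinases without deleting the receptor, and Jun was higher in the treated cells of both models. GFPpos cells were IgM+ by the sort, and FxE cells were sorted as IgM+ before culture. GFPpos cells were also sorted as GFP+ and GFPneg cells as GFP-negative, so drug and Rag2 reporter cannot be told apart between them. On the log2 scale, GFPpos cells stood 3.33 ± 0.63 above GFPneg cells (10.0-fold), and 12 of 9977 probe sets had a larger positive difference. Egr1 was 343.4, 554.4 and 361.9 units in GFPpos cells and 1142.9 to 1344 in GFPneg cells (-1.57 ± 0.23). FxE HA cells stood 1.06 ± 0.28 above FxE Ctrl cells (2.09-fold) with hours in the fit, and Egr1 was 373.8 to 1165 units in FxE HA and 1443.6 to 2284 in FxE Ctrl cells (-1.42 ± 0.33). Jun and Egr1 arrays of treated and untreated cells did not overlap in either model. By hours, the Jun difference was 0.74 at 24 h, where FxE Ctrl arrays gave 833.4 and 753.8 units, and 1.49 at 48 h, where they gave 312.1 and 413.3. The Egr1 difference was -1.68 at 24 h and -1.07 at 48 h. Hours come from a figure legend of the study by replicate number, since the labels give only a range of days, and with 2 arrays per cell at 48 h the change with hours was not tested.

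**Figure D2:**
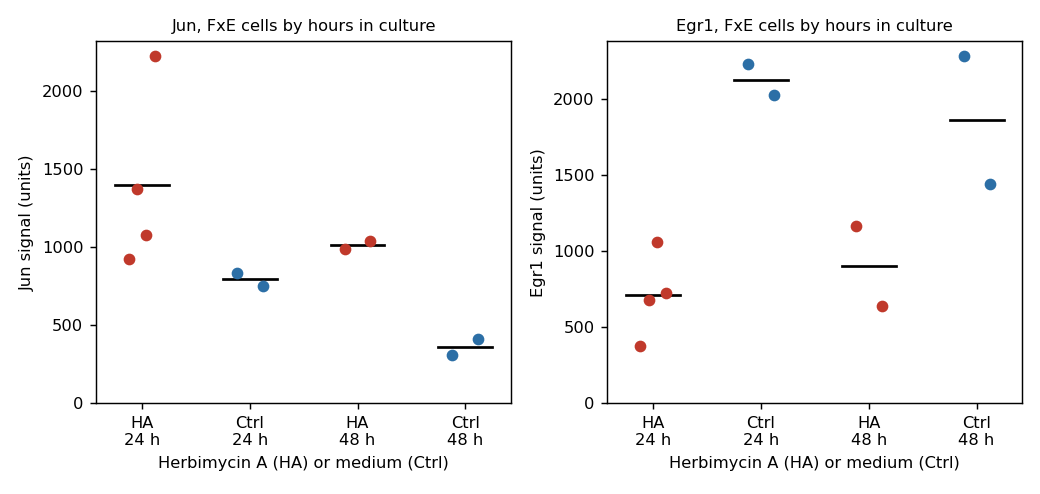
Jun (left) and Egr1 (right) signal in units on linear axes for FxE cells with herbimycin A (HA) or medium (Ctrl) at 24 h and 48 h; points are arrays and bars are means. At 48 h the 2 HA arrays gave 987.4 and 1037.1 units of Jun, against 312.1 and 413.3 in the Ctrl arrays.

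The other AP-1 subunits again gave no call. In GFPpos against GFPneg cells 0 of 10 were called (2.59% of probe sets), with 1 at an unadjusted p under 0.05 and a median of -0.03. In FxE HA against FxE Ctrl cells 0 of 10 were called (3.37% of probe sets), with 2 at an unadjusted p under 0.05 and a median of -0.01, against 0.07 for all probe sets. The methods' t-test called 0 in both. The 2 genes were Atf3, at 1214 ± 233 units in FxE HA and 672 ± 153 in FxE Ctrl cells (0.85 ± 0.24, limma adjusted p = 0.104), and Junb, at 936 ± 337 and 1465 ± 225 units in the same groups (-0.70 ± 0.30, limma adjusted p = 0.314).

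Traf6 was called in both drug models, at 27974 ± 481 units in GFPpos and 5022 ± 405 in GFPneg cells (2.48 ± 0.13) and at 11119 ± 1866 in FxE HA and 5305 ± 1657 in FxE Ctrl cells (1.11 ± 0.25). The first call held in 2 of 6 fits without an array and the second in 1 of 10. Gadd45a rose by 1.96 ± 0.16 in FxE HA cells and kept its call in all 10 fits. In the same cells Dusp2, a phosphatase of MAP kinases, fell by 2.02 ± 0.25 and Egr2 by 1.38 ± 0.19, both in all 10 fits. Map3k1 fell by 1.26 ± 0.21, in 9 of 10, and Nab2 fell by 1.82 ± 0.31, in 8 of 10. Csk, the kinase that restrains Src kinases, fell by 1.18 ± 0.18. Of 28 immediate early genes 0 rose and 7 fell in FxE HA cells, where 3.37% of all probe sets were called (118 up and 218 down). In GFPpos cells 1 rose and 0 fell, near the 2.59% called over all probe sets. Nab2 fell by 2.35 ± 0.31 in GFPpos cells, and Ets2 and Nras of the ERK and SRF branch rose, each called in at most 1 of 6 fits without an array.

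Heat shock genes moved with Jun under the drug. Of 11 measured, 9 rose in FxE HA cells, Hsph1 (2.88 ± 0.22) among them, where 3.37% of all probe sets were called. In GFPpos cells, where 2.59% were called, 4 rose, and Hsph1 was 3.01 ± 0.19 higher, but each of the 4 calls held in at most 1 of 6 fits without an array. Of 12 pro-B and pre-B markers 5 rose in GFPpos cells, which were sorted by a Rag2 reporter, and of these only Rag1 kept its call in all 6 fits. In FxE HA cells 2 of 12 rose. Myeloid markers summed to 5468 to 8779 units in GFPpos and 7539 to 8521 in GFPneg cells, and to 32972 to 140396 in FxE HA and 33485 to 132197 in FxE Ctrl cells. The part of these genes in the Jun values was not tested.

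Set against each other in one fit of all 37 arrays, the Jun difference after deletion was 0.51 ± 0.67 larger than that of GFPpos cells and 2.66 ± 0.59 larger than that of FxE HA cells, given as a description. For the other 10 subunits the difference between effects was called for 0 in the first case (0.461% of probe sets) and 0 in the second (2.45% of probe sets), with 0 and 2 at an unadjusted p under 0.05 and lowest adjusted p of 0.958 and 0.191 by limma.

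**Figure D3:**
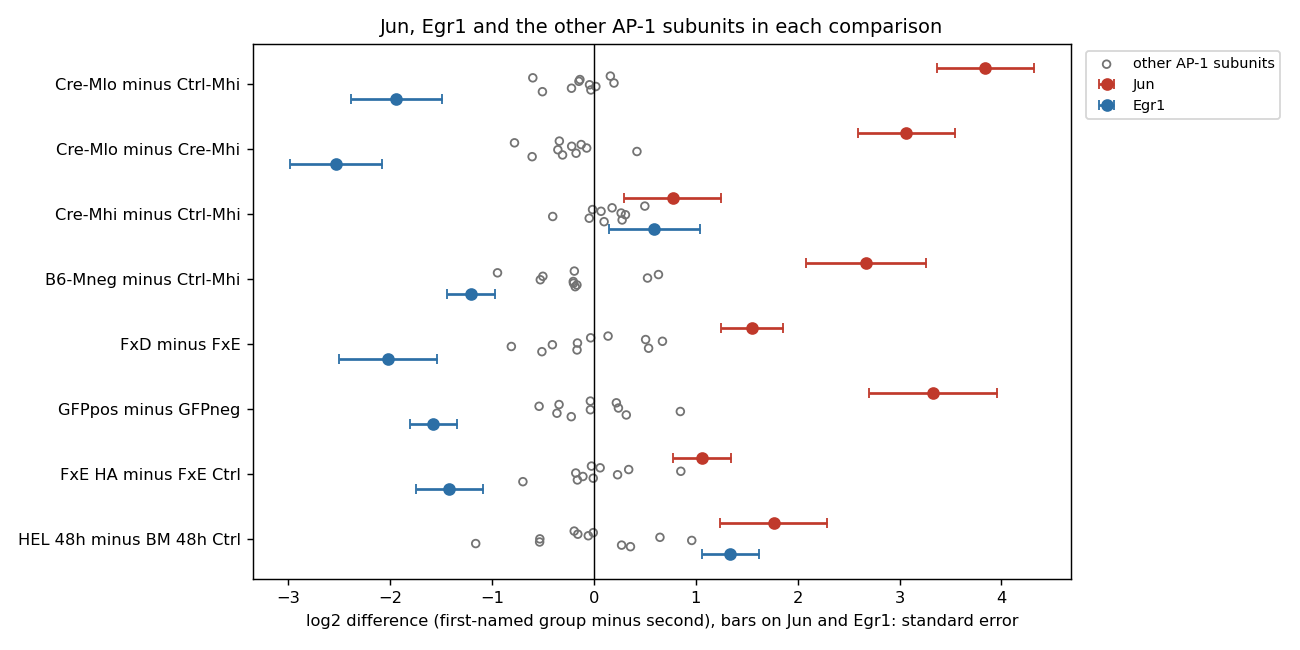
Log2 difference of Jun (red), Egr1 (blue) and each other AP-1 subunit (open circles) in the 8 comparisons, first-named group minus second, with standard errors as bars on Jun and Egr1. Jun lies right of the other subunits in all 8 comparisons, from 0.78 to 3.84, and Egr1 lies left of 0 in 6 of them.

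Antigen gave a different pairing of the 2 genes. HEL 48h cells were sorted as IgM-high and had met their antigen. Jun was 1882.39, 1093.53 and 1588.63 units there, against 753.49, 540.92 and 203.64 in BM 48h Ctrl cells. The groups did not overlap, and Jun was 1.77 ± 0.53 higher (3.40-fold). Egr1 was high as well, at 7060.19, 4166.02 and 4357.54 units in HEL 48h cells against 1939.38, 1798.93 and 2268.44 in the controls (1.34 ± 0.28), and its second probe set gave 286.38 to 409.17 against 46.02 to 60.99. So high Jun was also seen in cells sorted as IgM-high and cultured without herbimycin A. Whether these cells had lost part of their surface IgM or of their receptor signal was not tested. Egr1 was higher together with Jun here, whereas it was lower in the deleted, IgM-negative and herbimycin-treated groups. HEL-Mhi cells, also IgM-high, gave 675.2, 1698.4 and 450.1 units of Egr1 and 591.8, 324.7 and 401.4 of Jun. Low Egr1 was thus also seen on arrays of IgM-high cells with low Jun. Replicates 1 and 2 of HEL 48h and BM 48h Ctrl were scanned on the same day, and replicate 3 of each on another. In Jun, each HEL 48h array lay above the control arrays of its day, with a difference of 1.77 ± 0.48 when scan day was a block. HEL 48h cells were sorted as GFP+ and their controls as GFP-negative, so antigen and the Rag2 reporter cannot be told apart.

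Of 11 AP-1 subunits other than Jun measured on the U74A arrays, 0 were called in this comparison (0.23% of probe sets), with 1 at an unadjusted p under 0.05 and 0 by the methods' t-test. That gene was Atf2, at 3619 ± 746 units in HEL 48h and 2279 ± 89.6 in BM 48h Ctrl cells (0.65 ± 0.22, limma adjusted p = 0.352). Fos, the classical partner of Jun, averaged 294 ± 203 and 509 ± 194 units in the same groups, with overlap (-1.16 ± 0.83). Nab2 rose by 2.45 ± 0.20, to 2366 ± 218 units against 433 ± 46.0, the opposite direction to Cre-Mlo, GFPpos and FxE HA cells. Its call was lost in each of the 6 fits without an array (limma adjusted p 0.0860 to 0.148). No member of the JNK and p38 cascade (24 measured), of the heat shock list (11) or of the AP-1 targets (24) was called, with 3, 1 and 4 genes at an unadjusted p under 0.05 and 0 each by the methods' t-test. Summed pro-B and pre-B signal was 100807 to 111036 units in HEL 48h cells and 20699 to 44457 in BM 48h Ctrl cells.

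HEL-Mlo arrays stand on a scale of their own, with median signals of 21.58 to 26.22 units against 512.3 to 596.5 on the other U74A arrays, and their scaling is not given in the sources used here. There Jun could be placed only within each array. It lay at the 27.0th, 39.5th and 43.2th percentile of 9977 shared probe sets in HEL-Mlo cells, against the 52.6th, 40.9th and 45.5th in HEL-Mhi cells. On the first 2 of these HEL-Mlo arrays Jun was under 20 units, with 48.7% and 46.5% of all values at or under 20. The ranks were taken on signals without the floor, so such values were ordered too. With the scaling unknown, it cannot be said how far values this low are signal, so no direction is read from the ranks.

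Genes with a pattern like that of Jun were sought by Pearson correlation of log2 signal over the 37 U74Av2 arrays, among 5298 probe sets whose mean reached 500 units in some group. The arrays are replicates of 10 groups, so these values describe the group pattern and carry no p. The 10 most like Jun were Inpp5a (r = 0.85), an inositol phosphatase; Rag1 (0.84), of the V(D)J recombinase; Asf1a (0.84), a histone chaperone; Litaf (0.83); Dgcr6 (0.83); Xrcc6 (0.80), which encodes the DNA repair protein Ku70; Gstt2 (0.80); Ankrd33b (0.80); Tgif1 (0.79), a homeobox repressor; and Ap1ar (0.78). The 5 most opposed were 2 probe sets of Ms4a1 (-0.86 and -0.79), which encodes CD20, and those of Lmo2 (-0.84), Ptpn6 (-0.83), the phosphatase SHP-1, and Mef2c (-0.81). Egr1 had r = -0.72. Within groups the likeness was near 0 for Inpp5a (-0.03) and 0.40 for Rag1, so it rested on differences between groups. By rank correlation, and by correlation of the 10 group means, 7 of the 10 genes were shared.

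Inpp5a averaged 3164 ± 260 units in Cre-Mlo, 2375 ± 419 in GFPpos, 2203 ± 142 in B6-Mneg and 1927 ± 368 in FxE HA cells, against 776 ± 96.3 in Ctrl-Mhi, 723 ± 184 in GFPneg and 1135 ± 252 in FxE Ctrl cells. Rag1 averaged 37967 ± 5184 units in Cre-Mlo cells against 2330 ± 643 in Ctrl-Mhi cells. No AP-1 subunit or AP-1 target was among the most like: the highest were Gclc, an enzyme of glutathione synthesis (r = 0.40, rank 268), among the targets and Atf4 (0.18, rank 1150) among the subunits.

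**Figure D4:**
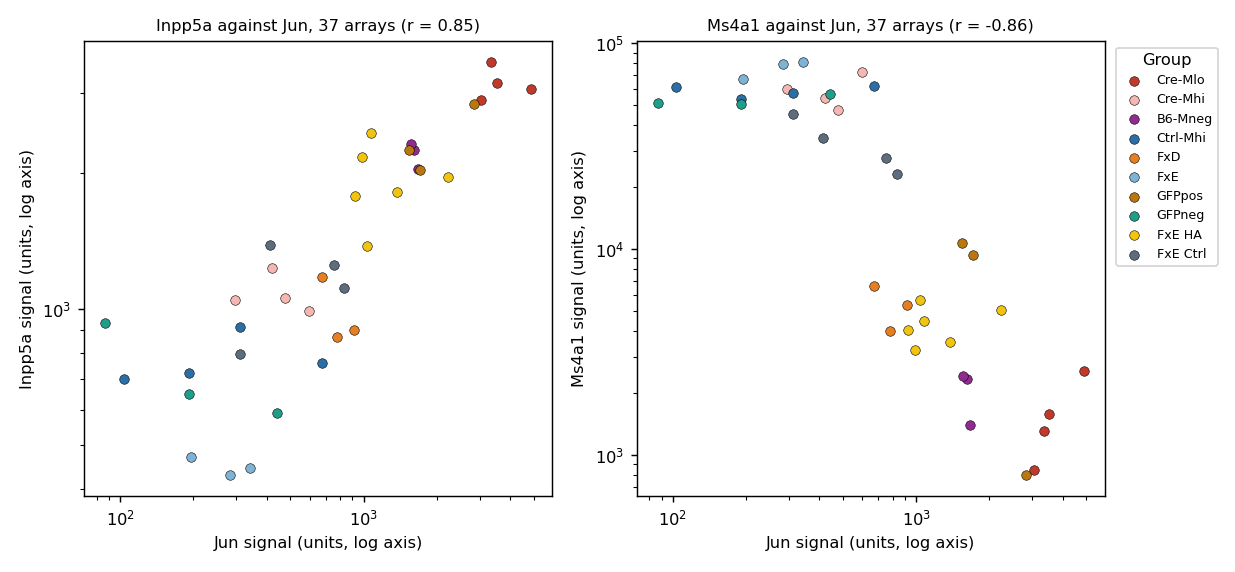
Signal of Inpp5a (left) and of the Ms4a1 probe set with r = -0.86 (right) against Jun on the 37 U74Av2 arrays, in units on log axes, coloured by group. Cre-Mlo arrays lie at the high end of Jun with high Inpp5a and low Ms4a1, and Ctrl-Mhi, FxE and GFPneg arrays lie at the low end.

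The U74A arrays had no part in that ranking, but HEL 48h and BM 48h Ctrl cells were split by the same Rag2 reporter as the GFPpos and GFPneg cells that entered it, so what follows is no independent check of the ranking. Between HEL 48h and BM 48h Ctrl cells all 10 genes most like Jun were higher, 9 of them with no overlap, where 8.48% of all 12588 probe sets were higher without overlap. All 5 opposed probe sets were lower with no overlap, where 12.1% of all probe sets were. Rag1 (4.77 ± 0.44, limma adjusted p = 0.0312), Litaf (2.42 ± 0.25, limma adjusted p = 0.0378) and Tgif1 (2.23 ± 0.22, limma adjusted p = 0.0378) were called, as was Ms4a1 (-2.60 ± 0.27, limma adjusted p = 0.0380), and the other 11 were not. Gstt2 overlapped, at 2009 ± 764 units in HEL 48h and 1545 ± 110 in BM 48h Ctrl cells. All 4 calls were lost in each of the 6 fits without an array, with adjusted p up to 0.168. Antigen and the sort by the Rag2 reporter cannot be told apart for any of these genes.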

How the data were processed

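RNA of sorted cells was hybridised to Affymetrix U74Av2 and U74A arrays. The deposited values are intensities per probe set on the linear scale; the authors calculated them with Microarray Suite 5 (MAS5 in the submitters' processing notes, version not given), applied a U74A mask to the U74Av2 arrays and scaled each array to 1500 units. For HEL 48h, BM 48h Ctrl and HEL-Mlo arrays, target and mask are not given in the sources used here. Array medians ran from 345.9 to 544 units on U74Av2 arrays, with 1.48% to 6.86% of values at or under 20. The number of arrays limits the precision.

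Signals were floored at 20 units and taken to log2. limma 3.58.1 (R 4.3.3) was fitted to the groups of each comparison, with the 12 Cre and control arrays in one fit and hours as a factor for FxE HA against FxE Ctrl, with two-sided tests and Benjamini-Hochberg adjustment over all probe sets (9977 or 12588). The tables were normalized separately and were not tested against each other. Probe sets were named by the platform annotation: 8724 of 9977 U74Av2 probe sets had 1 gene, 346 several and 907 none, and 10276, 363 and 1949 of 12588 on U74A. For a gene with several, the probe set with the highest mean log2 signal was used. By the methods, 4 independent sorts were made for each of Ctrl-Mhi, Cre-Mhi and Cre-Mlo and 2 or 3 for all other samples. FxE HA (6 arrays) and FxE Ctrl (4 arrays) hold more arrays than that, so some may share a sort, and p-values over arrays are then too small. The methods do not name HEL 48h and BM 48h Ctrl, whose p-values may measure only technical spread between arrays.

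Jun, Egr1 and all gene lists were chosen with earlier results of these data known. Named genes were Jun and Egr1 throughout, all measured AP-1 subunits for Cre-Mlo against Ctrl-Mhi, up to 5 called members of a list in a comparison, and the 10 most and 5 least correlated probe sets; Junb, Atf2, Atf3, Atf4 and Fos elsewhere were named after their values were seen. Alternatives were other floors, quantile normalization, a dim-probe filter, the methods' t-test (unequal variance, at least 2-fold, over 200 units), one fit of all 37 arrays, replicate number or scan day as a block, and leaving out each array. Promoters came from RefSeq (GRCm38.p6). Scripts were tested on simulated data.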

Additional observations from a re-analysis of the deposited data

Results flagged for a closer look

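In groups of 4 to 6 arrays, 60 sets of values for Jun, Egr1 and the other AP-1 subunits were checked for 1 array far from the rest, and 5 were found, where chance gives about 1 in 20. None was a Jun value. In Cre-Mlo replicate 3, Egr1 was 138.7 units, against 551.9 to 601.3 on the other 3 arrays, so the spread of Egr1 in the deleted cells came mostly from that array. In Ctrl-Mhi replicate 1, Junb was 3037.1 units, against 2170.6 to 2186.5, and Fosl2 was 105.5 units, against 481.2 to 554.5. In FxE HA cells, Atf3 was 774.7 units in replicate 1, against 1166.0 to 1381.8, and Atf4 was 14397.6 units in replicate 5, against 21551.1 to 25868.4. The causes were not tested.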

How the results depend on the processing

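Leaving out 1 array can hardly move a log2 difference beyond the replicate spread, so staying within that spread is a weak check. The dim-probe filter leaves the values of Jun and Egr1 unchanged. With these limits, the log2 differences of Jun and Egr1 kept their sign in all 109 alternatives run for each gene, within that spread. For Jun they ranged from 3.41 to 4.31 (Cre-Mlo against Ctrl-Mhi), 2.88 to 3.23 (Cre-Mlo against Cre-Mhi), 0.34 to 1.24 (Cre-Mhi against Ctrl-Mhi), 1.33 to 1.73 (FxD against FxE), 2.24 to 3.14 (B6-Mneg against Ctrl-Mhi), 2.75 to 3.92 (GFPpos against GFPneg), 0.74 to 1.31 (FxE HA against FxE Ctrl) and 1.22 to 2.16 (HEL 48h against BM 48h Ctrl).

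The count of 0 called AP-1 subunits became 1 in 6 of 125 alternatives. In B6-Mneg against Ctrl-Mhi it was Atf4 with a floor of 100 units (limma adjusted p = 0.0414), with a mean signal of at least 200 units (0.0302) and in one fit of all 37 arrays (0.0105). In FxE HA against FxE Ctrl it was Atf3 with a mean signal of at least 200 units (limma adjusted p = 0.0489) and in the fit of all 37 arrays (0.0342), and Junb when any of its probe sets counted (0.0493).

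Counts of all called probe sets moved more. The methods' t-test gave 285 for Cre-Mlo against Ctrl-Mhi, 217 against Cre-Mhi, 4 for Cre-Mhi against Ctrl-Mhi, 515 for FxD, 513 for B6-Mneg, 219 for FxE HA and 100 for HEL 48h. One fit of all 37 arrays gave 508, 353 and 1 in the 3 Cre comparisons, 866 for FxD, 663 for GFPpos and 731 for FxE HA. A mean signal of at least 200 units gave 0 for Cre-Mhi against Ctrl-Mhi, 500 for FxD, 736 for GFPpos, 535 for FxE HA and 73 for HEL 48h. A floor of 100 units gave 0 for Cre-Mhi against Ctrl-Mhi, 494 for GFPpos and 54 for HEL 48h, and no floor gave 136 for GFPpos. The 24 h arrays alone gave 104 for FxE HA, and scan day as a block gave 0 for HEL 48h.

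Leaving out 1 array gave 581 to 751 probe sets for Cre-Mlo against Ctrl-Mhi, 387 to 520 against Cre-Mhi, 1 to 5 for Cre-Mhi against Ctrl-Mhi, 0 to 125 for FxD, 737 to 1232 for B6-Mneg, 1 to 91 for GFPpos, 186 to 323 for FxE HA and 0 to 3 for HEL 48h. Of the list genes called, 26 of 36 kept their call in every such fit for Cre-Mlo against Ctrl-Mhi, 20 of 35 against Cre-Mhi, 25 of 45 for B6-Mneg, 17 of 33 for FxE HA, 1 of 21 for GFPpos, which was Rag1, 0 of 10 for FxD and, with the genes most like or opposed to Jun, 0 of 6 for HEL 48h.

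Equal replicate numbers were not taken to pair the arrays, since in no comparison did the deviations of every equal-numbered pair correlate above 0.1 (range -0.137 to 0.166). For Cre-Mlo and Cre-Mhi all 4 pairs were above 0 (0.011 to 0.166) and 3 of 4 arrays correlated most with their own number, a hint from the data and not from the design. Replicates 1 and 2 of HEL 48h and BM 48h Ctrl shared a scan day, as did replicate 3 of both. With the replicate number as a block, 1 probe set was called for Cre-Mhi against Ctrl-Mhi, 137 for B6-Mneg, 45 for FxE HA and 0 each for FxD, GFPpos and HEL 48h.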
